A study of Homo sapiens with 59 samples.

Results

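The 10 genes PHGDH, PSAT1, PSPH, SHMT1, SHMT2, MTHFD1, MTHFD1L, MTHFD2, ALDH1L2 and ASNS were followed by symbol in 7 tables of Jurkat mRNA, out of 34622 gene names listed there. They encode the route from glucose carbon to serine, the folate steps that carry its one-carbon unit, and asparagine synthetase. Jurkat is an established human T cell leukaemia line. Cells were kept in medium holding 25% of a single essential amino acid, and bulk mRNA was sequenced at day 3. Each of 7 restricted groups had 5 libraries, at 25% histidine, 25% methionine, 25% phenylalanine, 25% tryptophan, 25% isoleucine, 25% leucine or 25% valine. Histidine, methionine, phenylalanine and tryptophan each had their own control group of 5 libraries. A control group of 4 libraries labelled BCAA control, for branched-chain amino acids, served isoleucine, leucine and valine together, so those 3 comparisons share their controls and are given side by side. No labelled group carries a genetic change, and the labels do not say that the 59 libraries came from separate cultures. The spread behind every p-value may therefore be technical, as it is that of libraries alone.

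PHGDH, PSAT1 and PSPH turn the glycolytic intermediate 3-phosphoglycerate into serine in a chain of oxidation, transamination and dephosphorylation. The serine hydroxymethyltransferases then split serine into glycine and a one-carbon unit bound to tetrahydrofolate, which the MTHFD enzymes and ALDH1L2 oxidise or release for purine, thymidylate and methionine synthesis. Parallel sets of these enzymes work in the cytosol and in mitochondria, and proliferating cells rely strongly on the mitochondrial set. ASNS makes asparagine from aspartate and glutamine. ASNS, PHGDH, PSAT1, PSPH, SHMT2 and MTHFD2 are known targets of ATF4, the transcription factor whose translation increases when amino acid shortage activates the eIF2 kinase GCN2, the product of EIF2AK4.

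Values are normalised counts, scaled by the authors within each table, so levels are tested between groups of a table only. Fold changes are restricted minus control on the log2(normalised count + 1) scale, where 1 is a doubling, and a gene was called at an adjusted p below 0.05 in limma. Values after ± are SD over the 5 libraries of a group (4 for BCAA control). Normalised counts summed to between 14949649 and 20539287 per library, and the step between low values put the reads behind them at roughly 11500000 to 35600000. All 12 T lineage markers examined, CD3E among them, averaged 10 normalised counts or more in every group. Of the T lineage markers 4 rose and 3 fell with histidine, 3 and 2 with methionine, 3 and 4 with tryptophan, 1 and 0 with leucine and 1 and 1 with valine, and none was called with phenylalanine or isoleucine. Over all tested genes 27.9% were called with histidine, 53.2% with methionine and 51.3% with tryptophan. With leucine, valine, phenylalanine and isoleucine these shares were 7.75%, 12.5%, 10.2% and 0%. Several libraries stood apart. Histidine control 3 held 4358 normalised counts of the collagen gene COL1A1, against 261 to 298 in the other histidine controls, and phenylalanine control 1 held 199.6 of the epithelial gene EPCAM, which was listed at 0 in the other phenylalanine controls. Of 9 markers of other cell types, 3 or 4 reached a mean of 10 in a group, among them PECAM1, which leukocytes also express. Their sum in the histidine libraries was 989.7 to 1184 in restricted and 1545 to 6113 in control cells. It was 896 to 1044 in restricted and 1253 to 2834 in control cells of the phenylalanine table. In the methionine table it was higher, at 1659 to 1814 in restricted and 1404 to 1562 in control cells, with PECAM1 and the keratin gene KRT18 called higher. COL1A1 was called higher with tryptophan, and PECAM1 was called lower with histidine, phenylalanine and valine, as KRT18 was with histidine. Valine 25% 5 held 918 of COL1A1, against 160.5 to 361 in the other valine-restricted libraries, and without it the valine call of MTHFD2 was lost. The part of these markers in the results was not tested beyond leaving libraries out. No call for the 10 genes changed without histidine control 3, and without phenylalanine control 1 MTHFD1 alone gained one. Phenylalanine 25% 2, phenylalanine control 1, BCAA control 1 and valine 25% 2 were also high in ribosomal protein mRNA, as described with PHGDH. Phenylalanine 25% 2 and BCAA control 1 also had the highest read estimates, 35600000 and 32300000 (isoleucine table). All other libraries were estimated at 22400000 or fewer. The part of read depth was not tested. In bulk RNA, fewer cells of a type and less RNA per cell cannot be told apart.

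The 200 bases before the transcription start of 4 of the genes are shown 5′ to 3′ because their mRNAs answered the amino acids differently. They come from RefSeq promoters on GRCh38.p14, where 7 of the 10 genes matched an entry, and capitals mark letters found by a motif search. ASNS (chr7:97872409-97872608, minus strand) carries TGATGAAAC, a match to TGATGNAAN, the letters of the ATF4 and C/EBP composite element known to drive this gene under amino acid shortage. MTHFD1L (chr6:150866286-150866485, plus strand) carries TGATGCAAT, another match to the same letters, and CACGTG, the E-box bound by MYC and related factors. MTHFD1 (chr14:64388153-64388352, plus strand) carries CACGTG. PSAT1 (chr9:78296925-78297124, plus strand) carries none of the searched letters in this window.
ASNS: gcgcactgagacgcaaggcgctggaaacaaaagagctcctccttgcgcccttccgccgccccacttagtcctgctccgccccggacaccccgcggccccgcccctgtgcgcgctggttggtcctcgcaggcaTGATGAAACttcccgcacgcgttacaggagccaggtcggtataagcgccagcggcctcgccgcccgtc
MTHFD1L: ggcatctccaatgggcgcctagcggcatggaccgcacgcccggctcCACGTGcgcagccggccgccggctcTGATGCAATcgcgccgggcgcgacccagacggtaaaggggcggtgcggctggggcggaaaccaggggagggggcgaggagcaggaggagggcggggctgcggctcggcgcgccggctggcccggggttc
MTHFD1: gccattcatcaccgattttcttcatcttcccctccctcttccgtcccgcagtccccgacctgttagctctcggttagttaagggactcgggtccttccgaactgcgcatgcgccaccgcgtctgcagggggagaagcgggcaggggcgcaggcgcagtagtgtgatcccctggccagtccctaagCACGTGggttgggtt
PSAT1: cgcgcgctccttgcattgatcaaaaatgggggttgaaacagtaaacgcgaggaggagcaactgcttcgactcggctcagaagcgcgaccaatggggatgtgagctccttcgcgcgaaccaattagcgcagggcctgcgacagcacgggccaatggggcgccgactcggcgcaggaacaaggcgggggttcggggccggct
Searched on both strands of 35116 RefSeq promoters reaching from 250 bases before to 50 bases after the start, TGATGNAAN occurred in 3.61% and CACGTG in 7.26%. Among the 7 genes with an entry, TGATGNAAN occurred in ASNS (68 to 60 bases before the start) and MTHFD1L (129 to 121 bases before it), and CACGTG in MTHFD1 and MTHFD1L. RefSeq has 4 entries for MTHFD1L and 2 for ASNS, of which the first listed of each gene is shown. In other MTHFD1L entries TGATGNAAN lay at -90 to -82 or at 25 to 33, counted from their own starts, and a further MTHFD1L entry and the other ASNS entry held no match. The E2F letters TTTCGCGC (0.515% of promoters) and TTTGGCGC (0.652%) occurred in none of the 7. The letters describe these windows and show no binding. Of the genes that share TGATGNAAN, ASNS rose and MTHFD1L fell under tryptophan restriction, and both fell under methionine and phenylalanine restriction.

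Every one of the 10 genes passed the mean of 10 normalised counts in all 7 tables, and their responses differed sharply between amino acids. Methionine restriction lowered 8 of the 10 and raised 0, where 25.4% of all tested genes were called lower and 27.8% higher (53.2% in either direction). Tryptophan restriction raised 5 and lowered 3, against 23.6% called higher and 27.7% called lower over all genes (51.3% in either direction). Histidine restriction raised 3 and lowered 0, with 15.6% of all genes called higher and 12.3% lower (27.9% in either direction). Phenylalanine restriction lowered 4 and raised 0, with 6.09% of all genes called lower and 4.11% higher (10.2% in either direction). Valine restriction lowered 5 and raised 0, with 7.36% of all genes called lower and 5.13% higher (12.5% in either direction). Leucine restriction raised 1 (3.41% of all genes called higher) and lowered 1 (4.33% called lower, 7.75% in either direction). Isoleucine restriction gave 0 calls in limma, the one tool run, among the 10 genes and 0% over all 16623 tested, with 1 of the 10 and 872 of all genes at an unadjusted p below 0.05. The median log2 fold change of the 10 genes was -1.19 under methionine, 0.46 under tryptophan, 0.12 under histidine, -0.34 under phenylalanine, -0.39 under valine, -0.04 under leucine and 0.02 under isoleucine restriction, while the median over all tested genes lay between -0.01 and 0.03 in each comparison. Under equal library totals the all-gene median shifted by 0.25 in the tryptophan comparison, 0.13 in the methionine, 0.12 in the phenylalanine and 0.11 in the valine comparison, so small changes are relative to the deposited scaling.

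**Figure D1:**
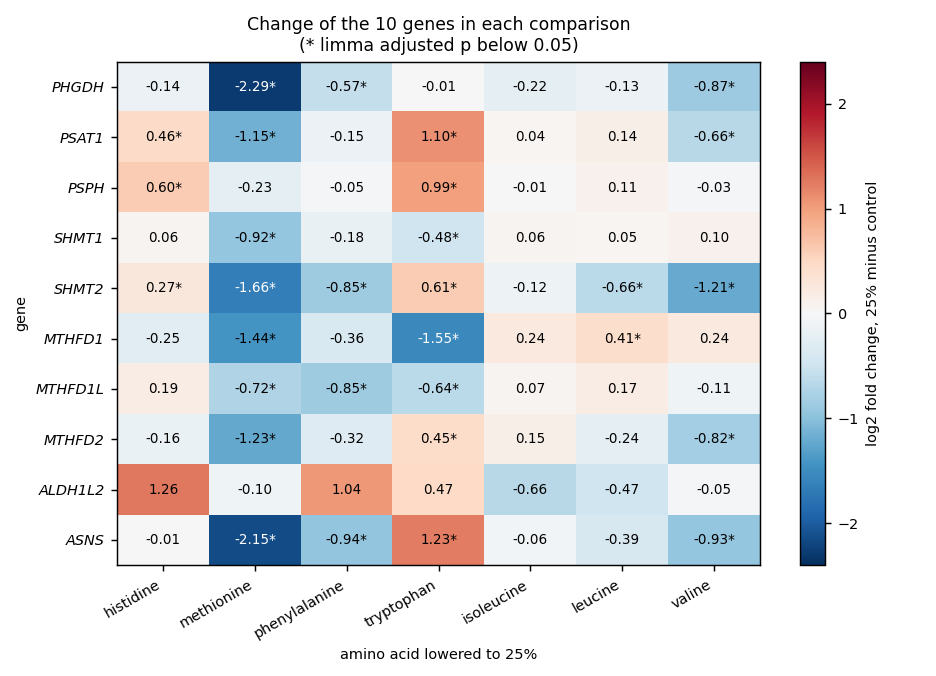
Log2 fold change (25% minus control) of the 10 genes, in rows, for each lowered amino acid, in columns. An asterisk marks an adjusted p below 0.05 in limma. The methionine column is negative throughout, from -2.29 for PHGDH to -0.10 for ALDH1L2, whereas the tryptophan column runs from -1.55 for MTHFD1 to 1.23 for ASNS.

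Per kilobase of the longest coding sequence, so that genes can be compared, control levels spanned a wide range. In the methionine controls PSAT1 had 6838, MTHFD2 6789.6, PHGDH 5358 and SHMT2 4727 normalised counts per kilobase. The other genes of that table lay between 848 for MTHFD1 and 507 for ASNS, apart from ALDH1L2 at 4.83. The same 4 genes held the first 4 places in the controls of all 7 tables, and ALDH1L2 was last in every group. In the tryptophan controls neighbours came close, with SHMT2 at 2257 ± 124 and MTHFD1 at 1979.5 ± 133 per kilobase. Untranslated regions are not in these lengths, so neighbours in the order are uncertain.

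PHGDH, the dehydrogenase that commits 3-phosphoglycerate to serine synthesis (chr1:119648411-119744226, plus strand, GRCh38), showed the greatest fall of the 10 genes under methionine restriction and fell also with valine and phenylalanine. ASNS came close (log2 fold change -2.15, SE 0.25), and with limma's library weights it fell further (-2.37, against -2.33 for PHGDH). PHGDH normalised counts were 1628, 1635, 1611, 1955 and 1911 in the methionine-restricted libraries, against 7365, 8858, 10045, 8235 and 8334 in the methionine control libraries. Every restricted library lay far below every control, a 4.89-fold decrease (log2 fold change -2.29, SE 0.09, adjusted p = 1.86e-10). In the valine table the counts were 3406, 4385, 2871, 3419 and 3216 in the valine-restricted libraries, against 9136, 5555, 4878 and 6124 in the BCAA control libraries. The groups again did not overlap, though BCAA control 1 stood well above the other controls (log2 fold change -0.87, SE 0.18, adjusted p = 0.00868). In the phenylalanine table the counts were 3298, 4433, 3022, 2921 and 3131 in the phenylalanine-restricted libraries, against 6483, 4568, 4366, 4898 and 4559 in the phenylalanine control libraries. Restricted library 2 reached into the control range, and the fall was smaller (log2 fold change -0.57, SE 0.14, adjusted p = 0.0228). Omitting restricted library 1, 3, 4 or 5 ended this call (adjusted p = 0.0561 to 0.0675).

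Under tryptophan restriction PHGDH had 5493 ± 315 in restricted, against 5529.6 ± 506 in control libraries, overlapping groups with a log2 fold change of -0.01 (95% interval -0.15 to 0.14). Under equal library totals it was called higher there (log2 fold change 0.24, adjusted p = 0.00714), a move of about the size of the all-gene shift of 0.25. Histidine (-0.14, interval -0.27 to 0.00), isoleucine (-0.22, interval -0.54 to 0.10) and leucine restriction (-0.13, interval -0.48 to 0.22) gave no call and overlapping groups.

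PHGDH stood high in the 4 libraries highest in the mRNAs of 79 ribosomal protein genes. Phenylalanine 25% 2 exceeded the rest of its group by 0.95 (log2) in ribosomal protein mRNA and by 0.52 in PHGDH. The corresponding excesses were 0.52 and 0.45 in valine 25% 2. They were 0.71 and 0.50 in phenylalanine control 1, and 1.06 and 0.71 in BCAA control 1 of the isoleucine table. PSAT1, the next enzyme of the pathway, deviated by 0.06, -0.45, 0.23 and 0.15 in those 4 libraries, in that order. SHMT1 was also above the rest of its group in all 4, by 0.40, 0.115, 0.31 and 0.55. Without these libraries the PHGDH falls stood under phenylalanine (log2 fold change -0.57, adjusted p = 2.11e-05) and valine restriction (log2 fold change -0.77, adjusted p = 1.22e-04). The next highest libraries in ribosomal protein mRNA differed among themselves. They were histidine control 5 (0.41, PHGDH -0.07), methionine control 5 (0.30, PHGDH -0.04) and leucine 25% 2 (0.28, PHGDH 0.36).

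**Figure D2:**
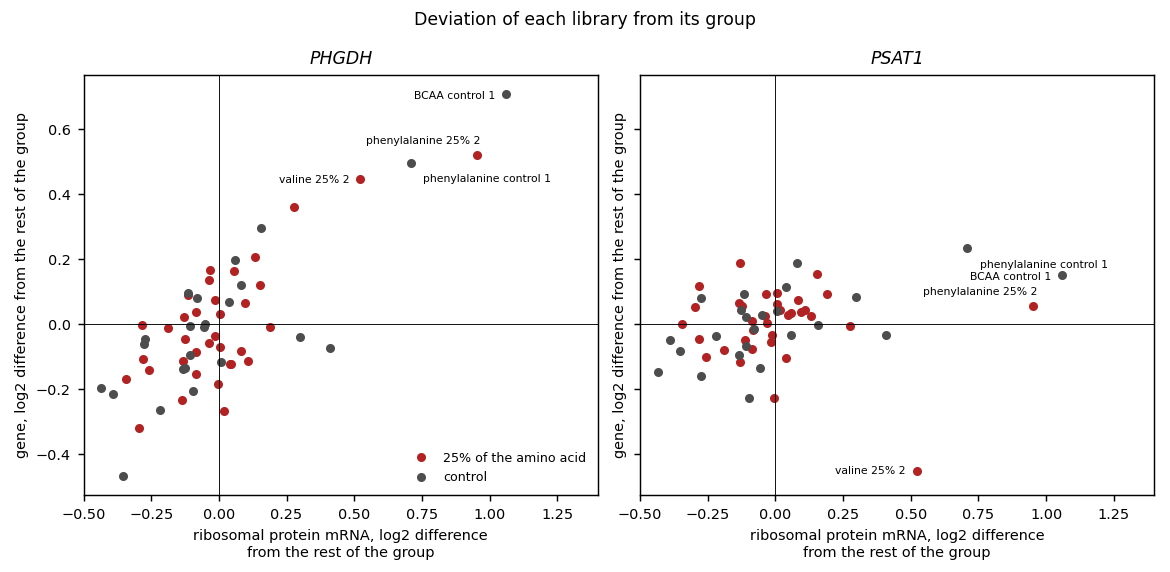
Difference of each library from the mean of the other libraries of its group (log2) for PHGDH and PSAT1 on the vertical axes, against the same for ribosomal protein mRNA on the horizontal axis. Each point is 1 of the 59 libraries (BCAA controls as in the isoleucine table), red for 25% of an amino acid and grey for control. The 4 named libraries lie 0.52 to 1.06 above their groups in ribosomal protein mRNA and 0.45 to 0.71 above them in PHGDH, whereas in PSAT1 they lie between -0.45 and 0.23.

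PSAT1, the transaminase of the pathway (chr9:78297143-78330093, plus strand), rose under tryptophan and histidine restriction and fell under methionine and valine restriction. Under tryptophan its normalised counts were 8852, 8562, 9302, 9437 and 9506 in the tryptophan-restricted libraries, against 4737, 4331, 4189, 4363 and 3759.6 in the tryptophan control libraries. All restricted libraries lay above all controls, 2.14-fold higher on average (log2 fold change 1.10, SE 0.06, adjusted p = 4.73e-09). The tryptophan control mean of 4276 was the lowest of the control groups, which otherwise lay between 4868 and 7590, with tables scaled separately. In the histidine table the counts were 10922, 10425, 10177, 10597 and 9789.9 in the histidine-restricted libraries, against 7470.5, 7628, 7263, 7934 and 7400.3 in the histidine control libraries. The groups were again fully apart, with a smaller rise (log2 fold change 0.46, SE 0.06, adjusted p = 4.32e-05). In the methionine table the counts were 3479, 3510.3, 3241, 3473 and 3432 in the methionine-restricted libraries, against 7429.5, 8080.1, 7568, 6934 and 7940.0 in the methionine control libraries. Here every restricted library was below every control, 2.21-fold lower on average (log2 fold change -1.15, SE 0.06, adjusted p = 3.44e-09). Valine restriction gave 4197, 3101, 4099.9, 4250.0 and 4424, against 6913, 5766, 6026 and 6609.6 in BCAA control libraries. These groups did not overlap either, and restricted library 2 was the lowest (log2 fold change -0.66, SE 0.13, adjusted p = 0.00572). Phenylalanine (-0.15, interval -0.33 to 0.03), isoleucine (0.04, interval -0.15 to 0.23) and leucine restriction (0.14, interval -0.04 to 0.33) gave no call.

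PSPH, the phosphatase of the final step (chr7:56011051-56051604, minus strand), shared the tryptophan and histidine rises with PSAT1 but no fall was called for it with all libraries equally weighted. In the tryptophan table the counts were 844, 881, 786, 736 and 949 in the tryptophan-restricted libraries, against 378, 437, 390.1, 431 and 468 in the tryptophan control libraries. Every restricted library exceeded every control, 1.99-fold on average (log2 fold change 0.99, SE 0.09, adjusted p = 3.88e-07). The histidine table gave 778, 710.2, 620.2, 605 and 702 in restricted, against 425, 449, 499, 367 and 515 in control libraries. These groups were apart as well (log2 fold change 0.60, SE 0.11, adjusted p = 0.00100). Under methionine restriction PSPH had 410.3 ± 38.6 in restricted, against 481 ± 52.1 in control libraries with overlapping groups (log2 fold change -0.23, SE 0.10, adjusted p = 0.0772). PSPH was called lower there without methionine control 1 (adjusted p = 0.0324) or with limma's library weights (adjusted p = 0.0463). In the phenylalanine, isoleucine, leucine and valine comparisons its log2 fold changes ran from -0.05 to 0.11, none called. Its pseudogene PSPHP1 had means up to 20.3 normalised counts in the tables, and reads of the pair may be divided between them.

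**Figure D3:**
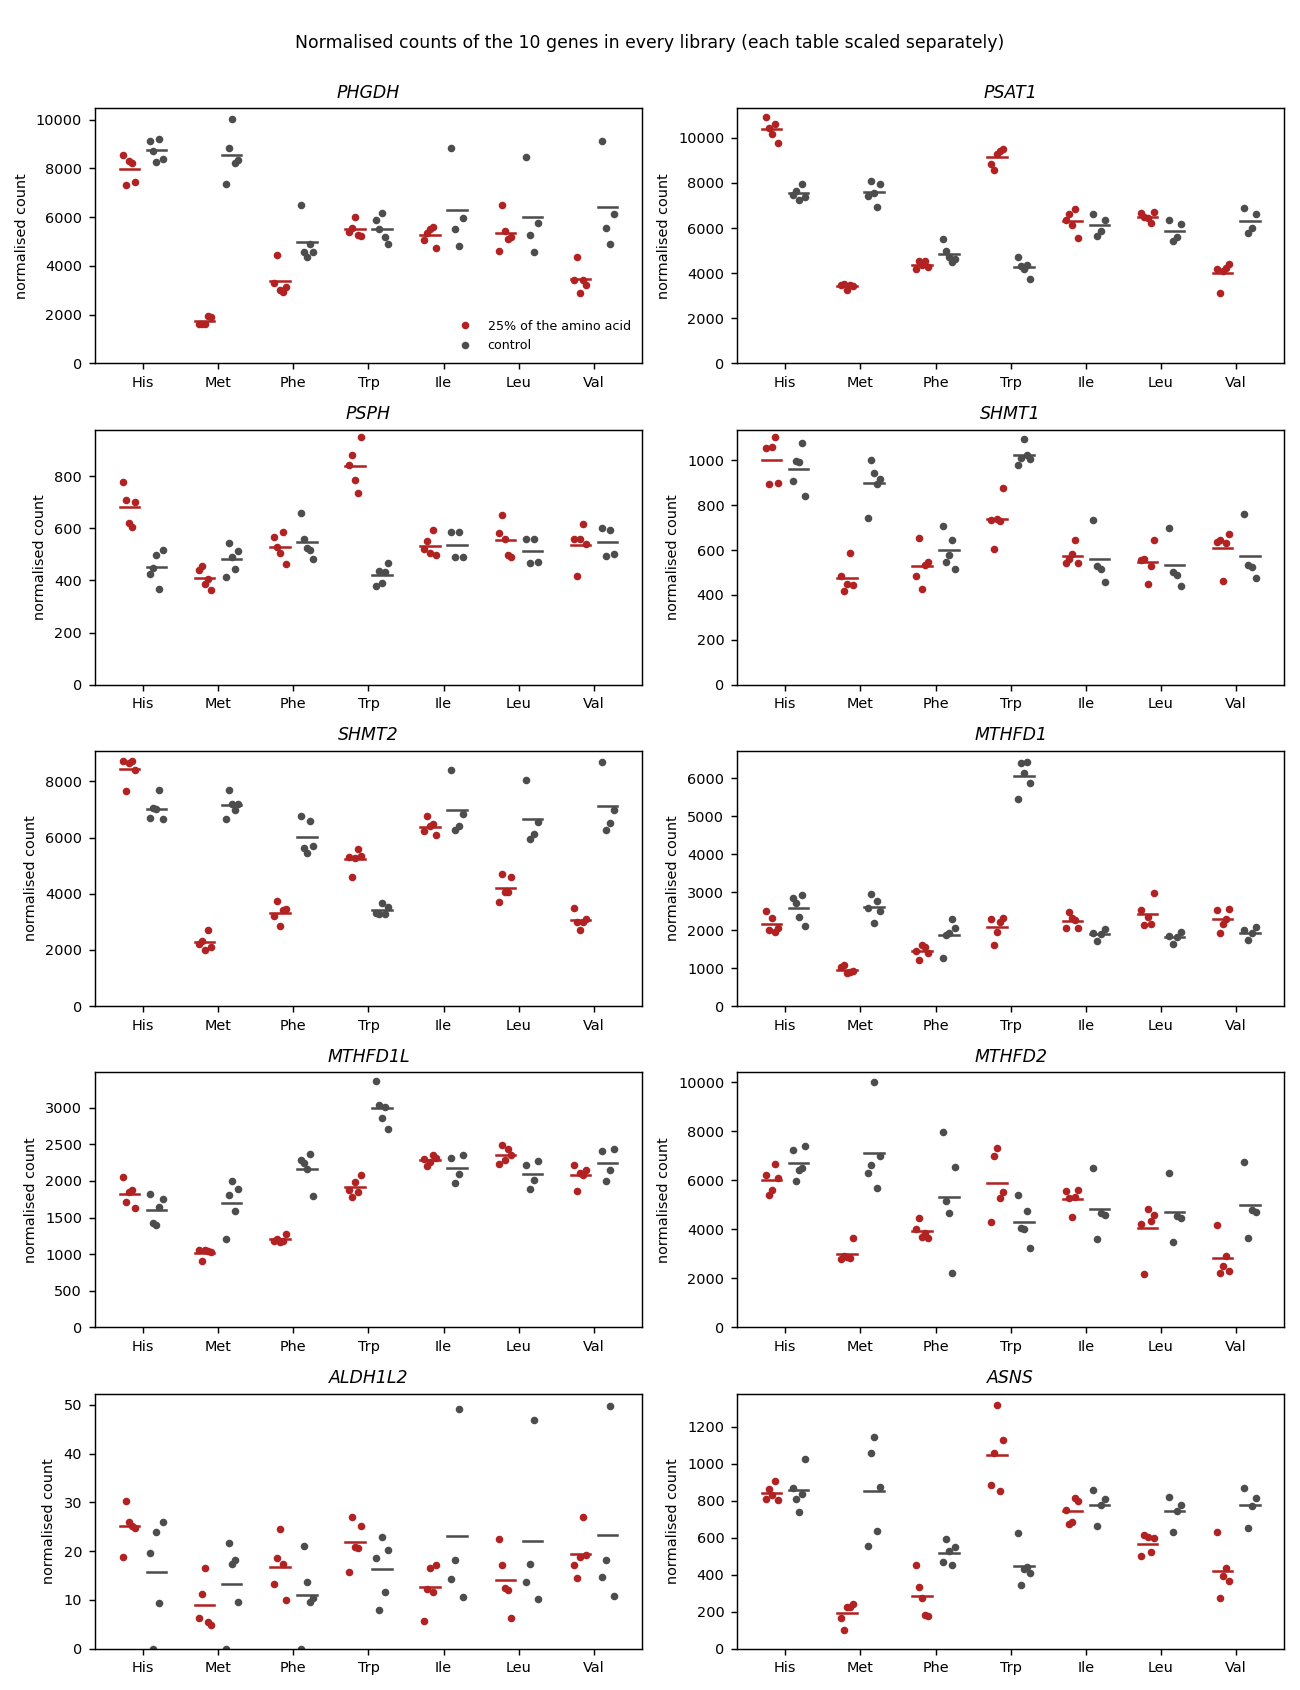
Normalised count of each of the 10 genes in every library, by amino acid on the horizontal axis, with red points for 25% of the amino acid and grey points for control, and bars at group means. Vertical axes are linear, start at 0 and differ between panels. PSAT1 shows restricted libraries above controls for histidine and tryptophan and below them for methionine and valine, and ALDH1L2 stays under 50 throughout.

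The serine hydroxymethyltransferases parted company. SHMT2, the mitochondrial enzyme (chr12:57229327-57234935, plus strand), changed in 6 of the 7 comparisons, rising under tryptophan and histidine and falling under methionine, valine, phenylalanine and leucine restriction. Its normalised counts were 2193, 2304, 2000.5, 2712 and 2120.3 in the methionine-restricted libraries, against 6668, 7681, 7193, 6988 and 7202 in the methionine control libraries. The groups lay wide apart, with a 3.17-fold decrease (log2 fold change -1.66, SE 0.08, adjusted p = 1.47e-09). In the valine table they were 3502, 3005, 2720.1, 2985 and 3114 in the valine-restricted libraries, against 8692, 6282, 6526 and 7000.3 in the BCAA control libraries. Each restricted library was lower than each control (log2 fold change -1.21, SE 0.13, adjusted p = 8.66e-05). The leucine table, with the same controls scaled separately, gave 3709.9, 4691, 4067, 4064 and 4583 in restricted, against 8046, 5951, 6133 and 6569 in BCAA control libraries. Again the groups did not overlap (log2 fold change -0.66, SE 0.11, adjusted p = 0.00534). Isoleucine restriction, against those same controls, gave 6249, 6783, 6399, 6472 and 6076 in restricted libraries, inside the control range of 6255 to 8423 apart from 2 values just below it (log2 fold change -0.12, SE 0.10, adjusted p = 0.799).

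Under phenylalanine restriction SHMT2 counts were 3198, 3744, 2837, 3426 and 3453, against 6781, 5613, 5443, 6582 and 5699.7 in phenylalanine control libraries. All restricted libraries were below all controls (log2 fold change -0.85, SE 0.10, adjusted p = 3.00e-04). Tryptophan restriction gave 5306, 4603, 5256, 5597 and 5355, against 3299, 3265, 3687, 3280.1 and 3528 in tryptophan control libraries. Here the order was turned round, with every restricted library above every control (log2 fold change 0.61, SE 0.06, adjusted p = 1.37e-06). The tryptophan control mean of 3412 was below those of the other control groups, at 6024 to 7147, with tables scaled separately. Histidine restriction gave 8746, 7672, 8673, 8718 and 8409, against 6706, 7038, 7010.1, 7709 and 6662 in histidine control libraries. The rise was small and restricted library 2 lay within the control range (log2 fold change 0.27, SE 0.06, adjusted p = 0.00648). Genes annotated on the opposite strand overlap the spans, introns included, of SHMT2, SHMT1, MTHFD1, MTHFD1L, MTHFD2, ALDH1L2 and ASNS. Whether their exons overlap was not examined. The libraries were strand-specific per the labels' protocols, but the sources used here do not give the strand setting of the quantification. Where exons overlap, reads of such a partner may therefore be counted with these genes.

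SHMT1, the cytosolic enzyme (chr17:18327860-18363563, minus strand), fell in 2 comparisons. In the methionine table the counts were 484, 418, 449.9, 586 and 443 in the methionine-restricted libraries, against 745, 1003, 944, 893 and 917 in the methionine control libraries. The groups did not overlap (log2 fold change -0.92, SE 0.11, adjusted p = 6.54e-06). In the tryptophan table they were 735, 604, 738, 729.7 and 876 in the tryptophan-restricted libraries, against 979.7, 1012, 1095, 1025 and 1004 in the tryptophan control libraries. All restricted libraries were below all controls, while SHMT2 rose in the same libraries (SHMT1 log2 fold change -0.48, SE 0.09, adjusted p = 3.26e-04). The tryptophan control mean of 1023 was the highest of the control groups, which otherwise lay between 533 and 963, and the tryptophan-restricted mean was 737. In the other 5 comparisons the log2 fold change of SHMT1 lay between -0.18 (phenylalanine) and 0.10 (valine), with no call. The valine interval reached from -0.27 to 0.46.

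The within-library ratio of SHMT2 to SHMT1 shows whether the mitochondrial and cytosolic mRNAs changed unequally. As a log2 ratio of normalised counts it was 2.83 ± 0.13 under tryptophan restriction, against 1.74 ± 0.05 in tryptophan control libraries (difference 1.10, adjusted p = 0.0159). It was 2.34 ± 0.16 under valine restriction, against 3.64 ± 0.17 in BCAA control libraries (difference -1.31, adjusted p = 0.0159). These were the widest shifts, in opposite directions. The tryptophan control value of 1.74 was the lowest of the control groups, which otherwise lay between 2.87 (histidine) and 3.66 (BCAA, leucine table). The tryptophan-restricted value of 2.83 stood close to the histidine control. Why the controls differed was not tested. The ratio was also lower under methionine, phenylalanine and leucine restriction (differences -0.74, -0.67 and -0.71, adjusted p = 0.0159 each) and higher under histidine restriction (0.21, adjusted p = 0.0247). Isoleucine gave a difference of -0.18 (adjusted p = 0.0769). All p-values are from exact two-sided permutation tests adjusted over 14 tests, and 0.00794 is the smallest unadjusted p that groups of this size allow.

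The trifunctional cytosolic MTHFD1 and the mitochondrial MTHFD1L, which makes formate in mitochondria, gave another such pair. Their log2 ratio, MTHFD1L over MTHFD1, was -0.11 ± 0.19 under tryptophan restriction, against -1.02 ± 0.18 in tryptophan control libraries (difference 0.91, adjusted p = 0.0159). It was 0.09 ± 0.22 under methionine restriction, against -0.63 ± 0.37 in methionine control libraries (difference 0.72, adjusted p = 0.0247). Here MTHFD1 mRNA had fallen further than MTHFD1L mRNA in both comparisons. The tryptophan control ratio of -1.02 was the lowest of the control groups, which otherwise lay between -0.68 (histidine) and 0.23 (phenylalanine). The ratio was lower under phenylalanine (-0.49, adjusted p = 0.0404) and valine restriction (-0.34, adjusted p = 0.0159) and higher under histidine restriction (0.44, adjusted p = 0.0404). Leaving out single libraries ended the phenylalanine call in 8 of 10 cases (adjusted p up to 0.0741). It ended the histidine call in 2 of 10 (adjusted p up to 0.0505). Isoleucine (-0.17, adjusted p = 0.0741) and leucine (-0.24, adjusted p = 0.103) missed the threshold, by the same exact permutation tests.

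**Figure D4:**
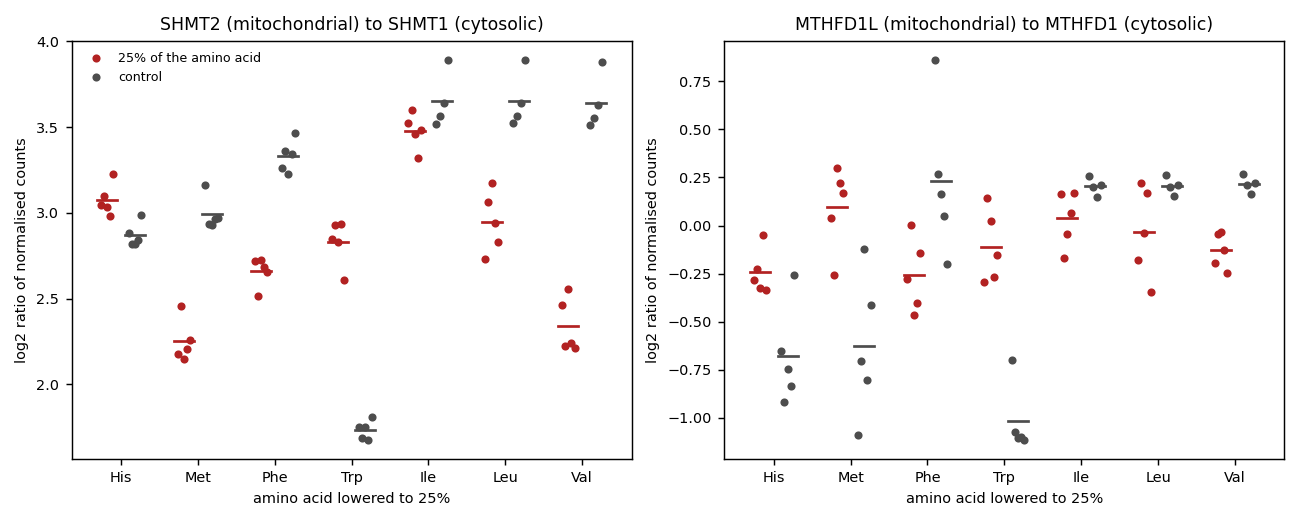
Log2 ratio of normalised counts of the mitochondrial to the cytosolic enzyme in each library, by amino acid, with red points for 25% of the amino acid, grey points for control and bars at group means. The SHMT2 to SHMT1 ratio under tryptophan averages 2.83 in restricted and 1.74 in control libraries, and under valine 2.34 in restricted and 3.64 in control libraries.

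MTHFD1 (chr14:64388031-64463457, plus strand) interconverts one-carbon folates for purine and thymidylate synthesis in the cytosol. It fell strongly with tryptophan and methionine and rose with leucine. Its normalised counts were 2299, 1617, 1948, 2216 and 2308 in the tryptophan-restricted libraries, against 5457, 6389, 6142, 6435 and 5863 in the tryptophan control libraries. The restricted libraries were 2.93-fold lower (log2 fold change -1.55, SE 0.09, adjusted p = 7.04e-09). The tryptophan control mean of 6057 stood above those of the other control groups, at 1815 to 2596, while the tryptophan-restricted mean was 2078. The tables were scaled separately, and why these controls were high was not tested. In the methionine table the counts were 1023, 1081, 861, 899 and 916 in the methionine-restricted libraries, against 2580.4, 2938, 2177, 2771 and 2513 in the methionine control libraries. These groups did not overlap either (log2 fold change -1.44, SE 0.09, adjusted p = 2.00e-08). The leucine table gave 2527, 2137, 2345, 2169 and 2983 in restricted, against 1848, 1639.8, 1811 and 1962 in BCAA control libraries. Every restricted library lay above every control, and the rise was modest (log2 fold change 0.41, SE 0.11, adjusted p = 0.0427). It was lost when any of 7 of the 9 libraries was left out (adjusted p = 0.0634 to 0.0988), and stood without leucine 25% 2 or BCAA control 1. The isoleucine-restricted libraries also lay wholly above those controls, at 2049.9 to 2477 against 1716 to 2033, with no call (log2 fold change 0.24, SE 0.09, adjusted p = 0.797). Valine restriction gave 0.24 (adjusted p = 0.223), and log2 fold change 0.31, adjusted p = 0.0281 without the 2 libraries high in ribosomal protein mRNA. Phenylalanine restriction gave -0.36 (adjusted p = 0.157), and -0.50 with adjusted p = 0.00770 without phenylalanine control 1, which had 1257 normalised counts against 1859 to 2288 in the other controls. Histidine restriction gave -0.25 (adjusted p = 0.0753). MTHFD1 was called lower there with limma's library weights (adjusted p = 0.0165). It was also called in 2 of 10 omissions of single libraries, histidine control 5 (adjusted p = 0.0144) and histidine 25% 1 (adjusted p = 0.04997).

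MTHFD1L (chr6:150865549-151101887, plus strand) fell under phenylalanine, methionine and tryptophan restriction. Its phenylalanine table values were 1184, 1210.3, 1159, 1176 and 1270.4 in the phenylalanine-restricted libraries, against 2286, 2242, 2156, 2371 and 1788 in the phenylalanine control libraries. Restricted libraries were tightly grouped and all below the controls (log2 fold change -0.85, SE 0.09, adjusted p = 1.62e-04). In the tryptophan table the counts were 1877, 1784, 1978, 1843 and 2076 in the tryptophan-restricted libraries, against 3358, 3037, 2852, 3002 and 2711 in the tryptophan control libraries. The groups did not overlap (log2 fold change -0.64, SE 0.07, adjusted p = 1.78e-06). The tryptophan control mean of 2992 was the highest of the control groups, which otherwise lay between 1608 and 2246, and the tryptophan-restricted mean was 1912. The methionine table gave 1051, 903, 1059, 1049 and 1030.2 in restricted, against 1211, 1804, 2000.3, 1589.8 and 1884 in control libraries. All restricted libraries were lower, and methionine control 1 was the lowest control (log2 fold change -0.72, SE 0.12, adjusted p = 1.46e-04). In the histidine, isoleucine, leucine and valine comparisons the log2 fold changes ran from -0.11 to 0.19, none called.

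MTHFD2, the mitochondrial dehydrogenase and cyclohydrolase that is abundant in dividing and tumour cells (chr2:74198562-74217565, plus strand), fell under methionine and valine restriction and rose under tryptophan restriction, and varied widely between libraries of some groups. Its methionine table values were 2791, 2905, 2858, 2824 and 3649 in the methionine-restricted libraries, against 6316, 6619, 10019.7, 5702 and 6989 in the methionine control libraries. All restricted libraries were below all controls, among which control 3 stood highest (log2 fold change -1.23, SE 0.13, adjusted p = 2.48e-06). In the valine table the counts were 4171, 2229, 2489, 2933 and 2294 in the valine-restricted libraries, against 6757, 3648, 4788 and 4728 in the BCAA control libraries. Restricted library 1 lay within the control range (log2 fold change -0.82, SE 0.21, adjusted p = 0.0213). Its call ended without valine 25% 3, valine 25% 5 or BCAA control 5 (adjusted p = 0.0537 to 0.0577). Tryptophan restriction gave 4299, 6983, 7326, 5280.4 and 5533, against 5401, 4076, 4022, 4737 and 3236 in tryptophan control libraries. The groups overlapped, and the rise (log2 fold change 0.45, SE 0.15, adjusted p = 0.0206) was lost without tryptophan 25% 2, tryptophan 25% 3 or tryptophan control 5 (adjusted p = 0.0532 to 0.0559). Phenylalanine restriction gave 4018, 4477, 3699, 3837 and 3645, against 7969, 5176, 4652, 2206 and 6555 in phenylalanine control libraries. The low control 4 decided this comparison, which had no call with it (log2 fold change -0.32, SE 0.27, adjusted p = 0.510) and a call without it (log2 fold change -0.60, adjusted p = 0.0347). Leucine (-0.24, interval -0.72 to 0.25), histidine (-0.16, interval -0.33 to 0.01) and isoleucine restriction (0.15, interval -0.16 to 0.46) gave no call. MTHFD2 has 7 named pseudogenes, none with a mean above 1.08 normalised counts.

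ALDH1L2, which oxidises formyl-tetrahydrofolate in mitochondria (chr12:105019784-105084577, minus strand), was barely present. Its normalised counts were 18.8, 30.3, 26.0, 25.2 and 24.8 in the histidine-restricted libraries, against 19.6, 0, 23.8, 9.42 and 25.9 in the histidine control libraries. The groups overlapped, and histidine control 2, methionine control 1 and phenylalanine control 1 were listed at 0. Over all 7 tables single libraries held 4.87 to 30.3 in restricted and 0 to 49.8 in control groups. No comparison gave a call. The 95% interval of the log2 fold change was -0.34 to 2.87 for histidine, where limma's library weights gave a call (log2 fold change 2.22, adjusted p = 0.0395, against 1.26 with equal weights).

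ASNS (chr7:97852118-97872542, minus strand), whose promoter letters are shown above, moved over the widest range of the 10 genes, from a 4.44-fold decrease with methionine to a 2.35-fold increase with tryptophan. Under methionine restriction its normalised counts were 167, 102, 227, 224 and 244 in the methionine-restricted libraries, against 553, 1057, 1143, 636 and 876 in the methionine control libraries. The groups were fully apart (log2 fold change -2.15, SE 0.25, adjusted p = 5.93e-06). Under tryptophan restriction they were 885, 1056, 1318, 854 and 1131 in the tryptophan-restricted libraries, against 623, 344, 430.4, 443 and 408 in the tryptophan control libraries. All restricted libraries exceeded all controls (log2 fold change 1.23, SE 0.15, adjusted p = 8.85e-06). The tryptophan control mean of 449.5 was the lowest of the control groups, which otherwise lay between 519 and 856, with tables scaled separately. In the valine table they were 634, 273, 394, 437 and 369 in the valine-restricted libraries, against 869.6, 652, 774 and 814 in the BCAA control libraries. The restricted libraries were all lower, though library 1 came close to the lowest control (log2 fold change -0.93, SE 0.21, adjusted p = 0.0125). Phenylalanine restriction gave 456, 333, 276, 185 and 179, against 469, 593, 529.7, 455 and 549 in phenylalanine control libraries. Restricted library 1 touched the control range (log2 fold change -0.94, SE 0.23, adjusted p = 0.0234). Its call ended without phenylalanine 25% 4, 25% 5, control 2, control 3 or control 5 (adjusted p = 0.0522 to 0.0615).

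Leucine restriction left ASNS just short of the threshold. Its counts were 503, 615, 603, 522 and 599.9 in restricted, against 822, 631, 743 and 779.8 in BCAA control libraries. The groups did not overlap (log2 fold change -0.39, SE 0.12, adjusted p = 0.0605). It was called when only genes with a mean of at least 100 were tested (adjusted p = 0.0457). Histidine restriction gave 843 ± 42.3 in restricted, against 856 ± 107 in control libraries, overlapping groups with a log2 fold change of -0.01 (interval -0.20 to 0.17). Isoleucine restriction gave -0.06 (interval -0.29 to 0.17). ASNS has 4 named pseudogenes, with means up to 7.74 normalised counts.

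Whether the responses differed between amino acids was tested directly. Over the 40 libraries of the histidine, methionine, phenylalanine and tryptophan tables, a moderated F test in limma called a difference between the 4 responses for 9 of the 10 genes, ALDH1L2 being the exception (adjusted p = 0.603), where 64.9% of 15774 genes were called. Of 180 pairwise tests, 10 genes in the 18 pairs of tables without shared libraries, 114 were called, against 26.2% of 291728 tests over all genes. PSAT1 differed in 17 of its 18 pairs, SHMT2 and MTHFD1 in 16 and ASNS in 14. In 19 of the pairs a gene was called in opposite directions, and the difference was called each time. These pairs were picked by calls in the same libraries, so that outcome was largely set by the choice and adds no separate support.

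The methionine and tryptophan responses contrasted widely. The methionine response minus the tryptophan response was -3.38 (SE 0.32, adjusted p = 4.30e-08) for ASNS. It was -2.28 (SE 0.11, adjusted p = 3.28e-12) for PHGDH, which fell with methionine and gave no call with tryptophan. It was -2.28 (SE 0.10, adjusted p = 6.50e-13) for SHMT2 and -2.24 (SE 0.08, adjusted p = 5.30e-14) for PSAT1. MTHFD1, MTHFD1L and SHMT1 fell in both comparisons. Their differences were 0.12 (SE 0.13, adjusted p = 0.579) for MTHFD1, -0.07 (SE 0.14, adjusted p = 0.753) for MTHFD1L and -0.44 (SE 0.14, adjusted p = 0.0224) for SHMT1, which fell further with methionine. For ASNS, PSAT1 and SHMT2 the tryptophan control mean was the lowest of the control groups. For MTHFD1, MTHFD1L and SHMT1 it was the highest, and the part of these controls in the contrast was not tested. Between histidine and tryptophan, where PSAT1, PSPH and SHMT2 rose in both, the histidine minus tryptophan difference was -0.64 for PSAT1, -0.39 for PSPH and -0.35 for SHMT2 (adjusted p = 2.51e-06, 0.0406 and 0.00372). ASNS, which rose with tryptophan and gave no call with histidine, differed by -1.24 (SE 0.18, adjusted p = 2.00e-05).

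Over all tested genes, the shares called in either direction were 53.2% with methionine, 51.3% with tryptophan, 27.9% with histidine, 12.5% with valine, 10.2% with phenylalanine and 7.75% with leucine, and the lists of other pathway genes are to be read against them. Among genes that move or use serine, 2 of the 14 genes measured rose and 9 fell under methionine restriction (median log2 fold change -0.60, against 0.02 over all tested genes). CBS, which joins serine to homocysteine, had 575 ± 45.9 in restricted against 2182 ± 84.4 in control libraries, log2 fold change -1.93, adjusted p = 1.71e-10. SARS1, the cytosolic seryl-tRNA synthetase, rose (log2 fold change 0.64). Under tryptophan restriction 6 of the 14 genes measured rose and 4 fell (median log2 fold change 0.04, against 0.03 over all tested genes). SFXN1, the mitochondrial serine carrier, fell by 0.77 and its relative SFXN3 rose by 0.57 on the log2 scale. With histidine 5 of the 14 genes measured rose and 0 fell, with SARS1 at 0.68. The median log2 fold change of the list was nonetheless -0.10, against -0.01 over all tested genes. Under valine 0 of the 14 genes measured rose and 4 fell, under phenylalanine 0 of the 14 genes measured rose and 3 fell, and under leucine 0 of the 14 genes measured rose and 1 fell. CBS was among the falls in each of these (log2 fold changes -0.90, -0.76 and -0.79).

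Of the genes for folate uptake, retention and reduction, 1 of the 8 genes measured rose and 6 fell under tryptophan restriction (median log2 fold change -0.42, against 0.03 over all tested genes). SLC19A1, the reduced folate carrier of the plasma membrane, had 721 ± 88.7 in restricted against 1704 ± 272 in control libraries, log2 fold change -1.23, adjusted p = 6.76e-07. SLC25A32, which takes folate into mitochondria, fell there (-0.95) and rose under methionine restriction (0.78). Under methionine restriction 2 of the 8 genes measured rose and 3 fell. Under phenylalanine 0 of the 8 genes measured rose and 2 fell, under histidine 0 of the 8 genes measured rose and 2 fell, and under valine 1 of the 8 genes measured rose and 0 fell.

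Among other folate-dependent enzymes, 3 of the 10 genes measured rose and 5 fell under methionine restriction (median log2 fold change -0.39, against 0.02 over all tested genes) and 1 of the 9 genes measured rose and 5 fell under tryptophan restriction (median log2 fold change -0.67, against 0.03 over all tested genes). TYMS, which makes thymidylate, had 3137 ± 222 in restricted against 7641 ± 678 in control libraries, log2 fold change -1.28, adjusted p = 1.00e-08 under methionine restriction. It fell too under tryptophan (-0.96) and histidine restriction (-0.66). MTRR, which reactivates methionine synthase, rose under methionine restriction (1.25). ATIC, of the last steps of purine synthesis, fell under tryptophan restriction (-1.01). Histidine restriction raised 2 of 10 and lowered 1. Of the glycine cleavage genes, GCSH, the carrier protein of the complex, fell with methionine (-1.29) and tryptophan (-0.67), and DLD fell with histidine (-0.33) and valine (-0.58). These were the sole calls among the 3 to 4 measured genes of that list in those comparisons. No gene of the other folate-dependent list was called in the phenylalanine, isoleucine, leucine or valine comparison, and none of the glycine cleavage list in the phenylalanine, isoleucine or leucine comparison.

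Of the aspartate and asparagine genes, 3 of the 12 genes measured rose and 5 fell under methionine restriction (median log2 fold change -0.10, against 0.02 over all tested genes), with SLC38A2, a neutral amino acid transporter, at -0.92 and the glutamine synthetase GLUL at -0.89. Under tryptophan restriction 1 of the 11 genes measured rose and 5 fell, with GOT2, the mitochondrial aspartate transaminase, at -0.78 and SLC38A2, the 1 that rose, at 0.16. With histidine 3 of the 11 genes measured rose and 3 fell, among them ASRGL1, which hydrolyses asparagine, at 0.45. Leucine and valine restriction each raised 1 and lowered 1, the gene that fell being the cytosolic transaminase GOT1 (-0.56 and -0.50). Phenylalanine restriction lowered SLC38A2 (-0.60) alone of the 11 measured. Isoleucine restriction gave no call in any of these 5 lists, and leucine restriction none in the folate uptake list.

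TRIB3, a pseudokinase induced by ATF4, rose under methionine restriction while ASNS, PHGDH and PSAT1 fell. It had 15223 ± 1014 in restricted against 3285 ± 189 in control libraries, log2 fold change 2.21, adjusted p = 1.27e-11. Under tryptophan restriction, where ASNS, PSAT1 and PSPH rose, TRIB3 had 10826 ± 408 in restricted against 1768 ± 45.2 in control libraries, log2 fold change 2.61, adjusted p = 1.87e-13. It rose under histidine restriction (1.06) and fell under leucine restriction (-0.59). ATF4 mRNA rose with methionine (0.35) and fell with tryptophan (-0.52) and histidine (-0.36), although ATF4 is known to be controlled mainly in translation, which these data do not measure. MYC, a transcription factor that raises SHMT2 and MTHFD gene expression in growing cells, fell with tryptophan (-1.33), methionine (-0.94) and histidine (-0.64) and rose with leucine (0.67). Of the 15 regulators, 6 rose and 3 fell with methionine, 8 and 4 with tryptophan, 7 and 3 with histidine, 1 and 2 with leucine and 1 and 1 with valine, with no call for phenylalanine or isoleucine. With methionine these 9 of 15 regulators stand beside 53.2% of all tested genes called. The shares beside the other counts were 51.3% with tryptophan, 27.9% with histidine, 7.75% with leucine and 12.5% with valine. Regulators besides TRIB3 went both ways. DDIT3 rose (1.36) and ATF3 fell (-1.32) with methionine, and SESN2 rose (1.52) and ATF3 fell (-0.79) with tryptophan. With histidine CHAC1 rose (0.90) and NUPR1 fell (-2.30).

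**Figure D5:**
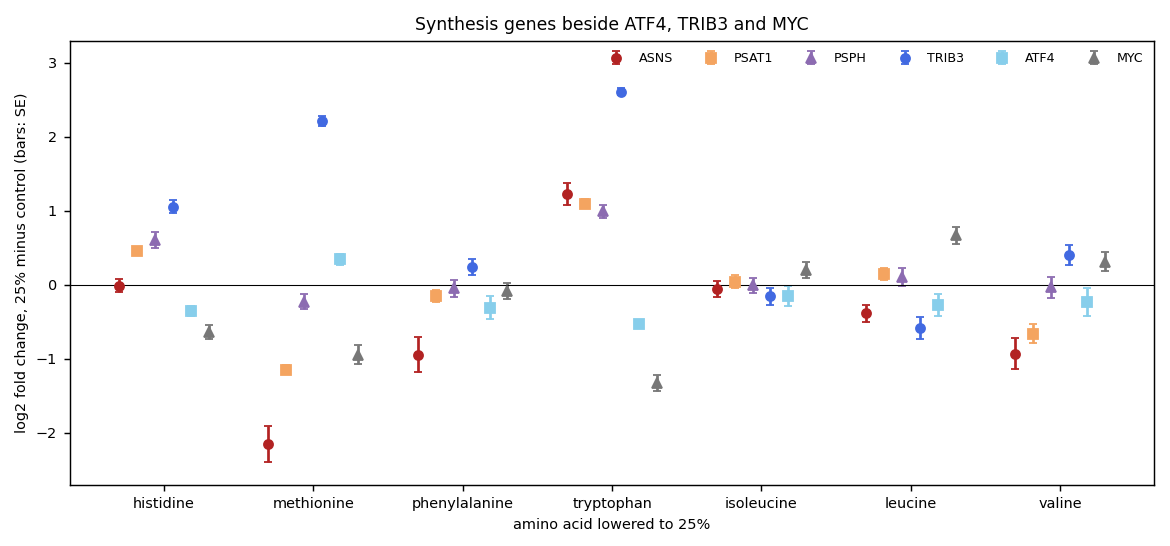
Log2 fold change (25% minus control) of ASNS, PSAT1, PSPH, TRIB3, ATF4 and MYC for each lowered amino acid, with bars of 1 SE. TRIB3 is at 2.21 under methionine and 2.61 under tryptophan restriction, where ASNS is at -2.15 and 1.23.

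The genes whose log2 values followed each member best over the 40 libraries of the histidine, methionine, phenylalanine and tryptophan tables were ranked by Pearson's r among 10598 genes, as a description. Each table was first centred on the mean of its restricted and control group means, since tables were scaled separately, and the libraries of a table share scaling and groups. Values over all libraries and within groups can differ. ASNS and PSAT1 had r = 0.805 over the 40 libraries and 0.119 within groups, and PHGDH and SHMT2 had 0.890 over the libraries and 0.557 within groups. For PHGDH and MTHFD1 the sign turned, from 0.611 over the libraries to -0.448 within groups. The matches below are over all libraries, so they include the differences between groups. PHGDH was followed by RPL10A (r = 0.978) and RPL13A (0.965), both ribosomal proteins, and HAUS4 (0.961). SHMT2 was followed by ASS1 (0.984), the argininosuccinate synthase that uses aspartate, PABPC1 (0.961) and EPHX2 (0.943). ASNS had ASS1 (0.880), EPHX2 (0.876) and CLYBL (0.872) as its nearest, and PSAT1 had the alanine transaminase GPT2 (0.942), SLC44A2 (0.919) and DLG3 (0.917). MTHFD1 was followed by CDK2 (0.956), MCM7 (0.954) and RRM1 (0.953), genes of the cell cycle and DNA replication. SHMT1 was followed by POLD2 (0.909) and E2F1 (0.896), and MTHFD1L by NPM1 (0.933). PSPH with SPNS3 (0.862) and MTHFD2 with PRXL2A (0.889) had weaker best matches, and ALDH1L2 had the weakest, KIFC2 (0.623).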

How the data were processed

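Bulk mRNA of 59 Jurkat libraries was read from the 7 tables that the authors deposited, each for a single amino acid. The deposited values are normalised counts (a non-negative signal), made with kallisto 0.50.1 and DESeq2 1.44.0 on GRCh38 per the submitters' processing notes, which also name FastQC 0.11.9. The sources used here give neither their settings nor the annotation release. A BCAA control library has different values in the isoleucine, leucine and valine tables, so each table was scaled separately and tested alone. Low values were whole multiples of a step, within 0.1, in at most 71.9% of cases per library, so reads were not recovered and no count model was used.

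Groups came from the labels. Genes averaging 10 or more in a table entered limma 3.58.1 (R 4.3.3; eBayes with trend, two-sided) as log2(normalised count + 1), with Benjamini-Hochberg adjustment over all genes of the table and a threshold of 0.05. Responses were compared in limma over joined tables, adjusted over all genes and 18 pairs. Isoenzyme ratios were tested by exact permutation. Errors are SD over libraries, 5 per group and 4 for BCAA control, and intervals are 95% limma intervals. The tests were tried on simulated data first. Other software was pandas 2.3.3, matplotlib 3.10.9 and data.table (version 1.17.8), with gene positions taken from GENCODE release 29 and promoters from RefSeq.

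The members and gene lists were chosen with earlier results of these data known. Named are all 10 members, ATF4, TRIB3 and MYC, up to 2 called genes with the largest change each way per list and comparison, and the 3 genes most like a member; the tryptophan fall of TYMS was added after its value was seen. Some list genes are counted but not reported here by name. Alternatives were pseudocounts of 0.25 and 5, no filter, a minimum mean of 100, trimmed-mean (TMM) factors, equal library totals, the replicate number as a block, limma's library weights, omission of phenylalanine 25% 2, phenylalanine control 1, valine 25% 2 and BCAA control 1, and leave-one-out. The block kept replicate numbers found in both groups, so replicate 2 of isoleucine, leucine and valine, absent from BCAA control, was left out there.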

Additional observations from a re-analysis of the deposited data

Results flagged for a closer look

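In 7 of 140 groups of a member's values, 1 library lay further from the others than Dixon's 95% limit, and chance flags about 1 in 20 groups. PHGDH was high in phenylalanine 25% 2 (4433, others 2921 to 3298) and in phenylalanine control 1 (6483, others 4366 to 4898), the libraries that also stood high in ribosomal protein mRNA. PSAT1 was low in valine 25% 2 (3101, others 4099.9 to 4424). MTHFD2 was low in leucine 25% 2 (2189.8, others 4219.6 to 4846) and high in methionine 25% 5 (3649, others 2791 to 2905). MTHFD1L was low in methionine 25% 2 (903, others 1030.2 to 1059), and SHMT1 was low in valine 25% 3 (462, others 630.3 to 672).

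The responses to histidine, methionine, phenylalanine and tryptophan differed by limma's moderated F test for 9 members. The adjusted p was 1.10e-16 for PHGDH, 9.38e-22 for PSAT1, 2.46e-09 for PSPH, 4.63e-06 for SHMT1, 1.90e-19 for SHMT2, 1.31e-09 for MTHFD1, 7.34e-08 for MTHFD1L, 2.58e-05 for MTHFD2 and 4.35e-11 for ASNS.

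In 19 pairs of comparisons a member was called in opposite directions and the difference was called in limma. The pairs were picked by calls in the same libraries, so the call of the difference adds no separate support. For SHMT2 the log2 differences were -2.28 (methionine minus tryptophan), -1.47 (phenylalanine minus tryptophan), 1.82 (tryptophan minus valine), 1.27 (tryptophan minus leucine), 1.93 (histidine minus methionine), 1.48 (histidine minus valine), 1.12 (histidine minus phenylalanine) and 0.92 (histidine minus leucine). For PSAT1 they were -2.24 (methionine minus tryptophan), 1.76 (tryptophan minus valine), 1.61 (histidine minus methionine) and 1.13 (histidine minus valine). For ASNS they were -3.38 (methionine minus tryptophan), -2.17 (phenylalanine minus tryptophan) and 2.16 (tryptophan minus valine). For MTHFD2 they were -1.67 (methionine minus tryptophan) and 1.27 (tryptophan minus valine). For MTHFD1 they were -1.85 (methionine minus leucine) and -1.97 (tryptophan minus leucine).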

How the results depend on the processing

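The number of the 10 genes called moved by over 1.5 times under 2 settings besides omission of single libraries, to 6 of 10 (3 reported) for histidine with library weights and to 1 (2 reported) for leucine with no filter. Leaving out each library in turn gave 3 to 4 for histidine, 8 to 9 for methionine, 2 to 5 for phenylalanine, 7 to 8 for tryptophan, 0 for isoleucine, 1 to 2 for leucine and 4 to 5 for valine. No called value changed sign under any setting tried. Of the members' log2 fold changes under an alternative, 1172 kept their side of the threshold and their direction, 24 lost a call, 17 gained one in the same direction and 49 values uncalled as reported changed sign, among them PHGDH under tryptophan restriction, which gained a call with equal totals (0.24, adjusted p = 0.00714). The share of all called genes that were higher moved under equal totals, to 62.6% for methionine (52.2% reported), 67.0% for phenylalanine (40.3%), 70.9% for tryptophan (45.9%) and 63.7% for valine (41.1%), and to 68.9% for histidine with trimmed-mean factors (55.9%). The count over all genes moved for phenylalanine (1736 reported) to 803 with the block and 4868 with library weights, and for leucine (1277) to 834 and 2699. For valine (2096) it moved to 3067 with the block and 4549 with library weights. Without the 4 libraries high in ribosomal protein mRNA it was 4435 for phenylalanine and 4210 for valine, and with no filter isoleucine gave 1 gene. The cause was not tested. Same-numbered restricted and control libraries correlated at -0.186 to 0.185, and the 4 valine pairs at 0.0358 to 0.185. With 4 or 5 pairs per comparison, low correlations cannot exclude that the numbers pair the samples. With the replicate block the phenylalanine count fell to 3 of the members, as PHGDH had adjusted p = 0.0609. The valine count rose to 6, as MTHFD1 had adjusted p = 0.0449, and the other 5 counts were as reported. For isoleucine, leucine and valine the block also left out restricted library 2, since BCAA control has no library 2. The changes there, including 834 and 3067 over all genes, therefore mix blocking with this omission. Omission of single libraries without the block gave MTHFD1 no valine call in limma (adjusted p = 0.0768 to 0.416). Of the isoenzyme ratio tests under alternatives, 152 kept their side and 10 lost the call, all for MTHFD1L to MTHFD1 (8 with phenylalanine and 2 with histidine). The low counts of ALDH1L2 leave its intervals wide.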
